A study of Saccharomyces cerevisiae and Saccharomyces paradoxus and Saccharomyces cerevisiae x Saccharomyces paradoxus with 12 samples.

Results

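ERG6, ERG2, ERG3, ERG5 and ERG4, which encode the enzymes of the last steps of ergosterol synthesis, and CYB5, which encodes cytochrome b5, were followed through every library of a comparison of baker's yeast, its wild relative and their hybrid. They were chosen by systematic name, with earlier results of these data known, and are 6 of the 5226 genes in the deposited count table. Shares over all genes that stand beside counts of the 6 are therefore description and no test of the set. RNA-seq measured mRNA. Ribo-seq, in which the stretches of mRNA under ribosomes are cut out and sequenced, measured ribosome occupancy. The strains were the diploid Saccharomyces cerevisiae GSY83, the diploid Saccharomyces paradoxus GSY82 and the diploid F1 hybrid GSY88, each 1 strain that stands for its species or cross. All were grown in rich glucose medium (YEP+D) at 30 °C to an OD600 between 0.6 and 0.9 and received cycloheximide, which arrests elongating ribosomes, for 5 minutes before extraction. Each strain and assay had 2 replicates, which gave 12 samples, taken here as 12 libraries. The counts have 16 columns, because reads of a hybrid library were counted for each allele separately. The labels leave unstated where replicates came from, be it 1 culture or several. The p-values thus measure only the spread between these columns of counts. For each gene the main fit shares 1 spread over all columns, so a parental p-value also takes in the spread of the hybrid columns. In the main fit both alleles of a hybrid library enter as separate columns, without the pairing that their shared library gives.

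Ergosterol is the main sterol of yeast membranes and takes the place that cholesterol has in animal cells. Its last steps start from zymosterol. Erg6, a methyltransferase, adds a methyl group to the sterol side chain, Erg2, an isomerase, moves a double bond in the ring system, Erg3, an oxygen-dependent desaturase, adds a ring double bond, Erg5, a haem-containing desaturase, adds one to the side chain, and Erg4, a reductase, removes another side-chain double bond to give ergosterol. Cytochrome b5 is a small haem protein of the endoplasmic reticulum that passes electrons to lipid-modifying oxidases and desaturases, the Erg3 step among them. Sterol genes in yeast are under the control of the activators Upc2 and Ecm22 and of factors that respond to haem and oxygen.

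On the S. cerevisiae build sacCer3, each of the 6 was annotated as a single exon with no intron, and the coding length was the same in both species. ERG6 (YML008C) lies on chromosome XIII from 251839 to 252990 on the minus strand, ERG2 (YMR202W) on chromosome XIII from 667537 to 668205 on the plus strand, and ERG5 (YMR015C) on chromosome XIII from 300869 to 302485 on the minus strand. ERG3 (YLR056W) lies on chromosome XII from 253861 to 254958 on the plus strand and ERG4 (YGL012W) on chromosome VII from 472855 to 474276 on the plus strand. CYB5 (YNL111C) lies on chromosome XIV from 416940 to 417302 on the minus strand, and its coding sequence of 363 bases was the shortest of the 6, against 1617 bases for ERG5.

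Totals per column ran from 6116133 to 8910405 counts, and columns of both species or alleles with the same assay and replicate number had totals within 0.18% of each other. Values of single genes are given as CPM, the TMM-scaled counts of a gene for each 1000000 counts of its column. A difference in total mRNA between species or alleles therefore cannot be seen, and every value is relative to the rest of the column. Replicates correlated across genes at r of 0.950 and 0.951 in the hybrid RNA-seq columns, 0.980 in S. paradoxus RNA-seq, and between 0.991 and 0.993 in the other 5 groups of columns. A low-count filter left 5158 genes to be tested, among them all 6 described here.

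**Figure D1:**
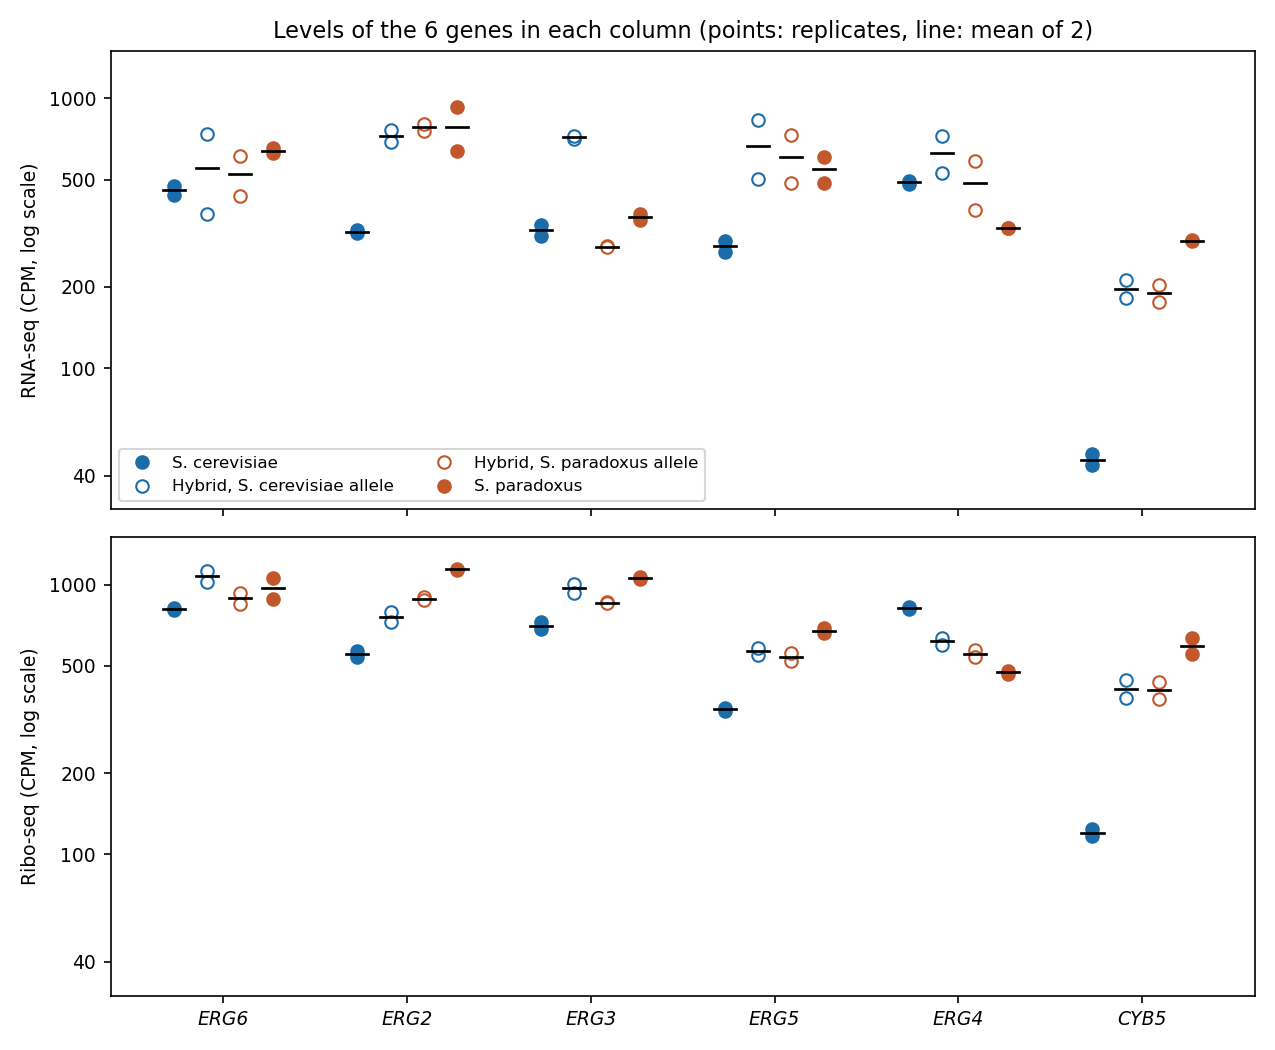
CPM of each gene in every column, on a log axis, for RNA-seq and Ribo-seq; each point is 1 column. CYB5 in S. cerevisiae lies lowest, at 43.7 and 48.0 CPM of mRNA, while the hybrid alleles of CYB5 lie together between 176 and 212.

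Levels between genes were compared as CPM per kilobase of coding length. ERG2 mRNA was the highest of the 6 in every strain and allele, at 480 ± 9.98 (SD, n = 2) in S. cerevisiae and 1169 ± 304 in S. paradoxus. In S. cerevisiae ERG6, ERG4, ERG3, ERG5 and CYB5 followed in that order, and no neighbours in it overlapped between replicates. CYB5 closed the order there at 126 ± 8.45, which is the 79.3rd percentile of the genes tested. In S. paradoxus it stood just under ERG2 at 819 ± 3.71, the 96.2nd percentile, followed by ERG6, ERG5, ERG3 and ERG4, where the ranges of ERG5 and ERG3 overlapped. In the hybrid the S. cerevisiae allele of ERG3 stood directly below ERG2 and the S. paradoxus allele of ERG3 lowest of the 6. The ranges of CYB5 and ERG6, of ERG6 and its next neighbour, and of ERG4 and ERG5 overlapped for both alleles. In Ribo-seq ERG2 led in every strain and allele, and its replicates overlapped those of CYB5, its neighbour, in S. paradoxus and for the S. cerevisiae allele of the hybrid.

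Between the species, CYB5, ERG2 and ERG5 mRNA was lower in S. cerevisiae than in S. paradoxus, ERG4 mRNA was higher, and ERG6 and ERG3 did not pass the test. The difference was 6.48-fold for CYB5, 2.44-fold for ERG2, 1.93-fold for ERG5 and 1.48-fold for ERG4. So 3 of the 6 genes were lower and 1 was higher, where 21.6% and 21.9% of all genes tested were called in these directions, 43.5% in all. Calls are an adjusted p under 0.05 in edgeR's quasi-likelihood test, adjusted by the Benjamini-Hochberg method over all genes tested, and this test gives each adjusted p below. Ratios are log2 of S. cerevisiae over S. paradoxus, with the standard error (SE). In a culture sampled in bulk, less mRNA per cell and fewer cells that express a gene cannot be told apart.

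ERG6 mRNA stood at 475 and 437 CPM in S. cerevisiae replicates 1 and 2, and at 625 and 656 in S. paradoxus. The S. cerevisiae values lay below those of S. paradoxus with no overlap, but the log2 ratio of −0.49 (SE 0.26, adjusted p = 0.136, 95% interval −1.04 to 0.06) did not pass. In the hybrid, ERG6 stood at 736 and 372 CPM for the S. cerevisiae allele, the widest gap between replicates among the 6 genes for that allele, and at 612 and 434 for the S. paradoxus allele. Fitted on the parental columns alone, without those hybrid columns, the log2 ratio was −0.47 with an adjusted p of 0.0176. It also passed with either hybrid RNA-seq library left out, with an adjusted p of 0.00529 without replicate 1 and 0.00467 without replicate 2.

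ERG2 mRNA stood at 326 and 316 CPM in S. cerevisiae and at 926 and 638 in S. paradoxus. Both S. paradoxus libraries were well above both S. cerevisiae libraries, although they differed from each other more than for 84.0% of genes. The log2 ratio was −1.28 (SE 0.17, adjusted p = 9.3e-05). ERG3 mRNA stood at 339 and 310 CPM in S. cerevisiae and at 372 and 355 in S. paradoxus. These groups lay close together without overlapping, and the log2 ratio was −0.16 (SE 0.13, adjusted p = 0.335, 95% interval −0.44 to 0.12).

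ERG5 mRNA stood at 269 and 297 CPM in S. cerevisiae and at 486 and 608 in S. paradoxus. S. cerevisiae was the lower with no overlap, and the log2 ratio was −0.95 (SE 0.24, adjusted p = 0.00571). Without S. cerevisiae RNA-seq replicate 1 the adjusted p of ERG5 was 0.0522. ERG4 mRNA stood at 495 and 482 CPM in S. cerevisiae and at 330 in each S. paradoxus replicate. ERG4, the last enzyme of the pathway, was thus the gene of the 6 with more mRNA in S. cerevisiae, at a log2 ratio of 0.57 (SE 0.19, adjusted p = 0.0309). This call was lost without any one of the 4 parental RNA-seq libraries or the 2 hybrid Ribo-seq libraries, with adjusted p between 0.0634 and 0.104. The number of the 6 genes called fell from 4 to 2, CYB5 and ERG2, without S. cerevisiae RNA-seq replicate 1.

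CYB5 mRNA stood at 48.0 and 43.7 CPM in S. cerevisiae, which rest on 478 and 434 counts, and at 296 and 298 in S. paradoxus. The species were far apart and each pair of replicates was tight. The log2 ratio was −2.70 (SE 0.17, adjusted p = 3.02e-07), and the call held with each of the 12 libraries left out in turn.

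Within the hybrid, where both alleles sit in the same cells, 1 of the 6 genes differed between alleles in mRNA, against 13% of all genes tested. That gene was ERG3, whose S. cerevisiae allele had 2.54 times the mRNA of the S. paradoxus allele. The S. cerevisiae allele stood at 709 and 724 CPM and the S. paradoxus allele at 283 and 281. The alleles were far apart in both libraries, with a log2 ratio of 1.35 (SE 0.13, adjusted p = 4.07e-05) that stayed past the threshold whichever library was left out. The S. cerevisiae allele took 71.1% of the ERG3 counts in replicate 1 (95% exact binomial interval 70.0 to 72.1) and 71.4% in replicate 2 (70.3 to 72.4). Such intervals cover counting error only, and the share over all genes, 50.0% in both libraries, follows from the nearly equal totals of the paired columns rather than being a reference measured on its own.

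CYB5, the gene furthest apart between the species, had nearly equal alleles. The S. cerevisiae allele stood at 212 and 182 CPM of mRNA and the S. paradoxus allele at 204 and 176. The ranges overlapped, the S. cerevisiae allele took 50.5% (48.8 to 52.3) and 50.0% (48.1 to 52.0) of the CYB5 counts, and the log2 ratio was 0.05 (SE 0.16, adjusted p = 0.871, 95% interval −0.29 to 0.40). ERG2 alleles stood at 689 and 760 CPM for S. cerevisiae and 758 and 805 for S. paradoxus, and overlapped, with a log2 ratio of −0.11 (SE 0.17, adjusted p = 0.737).

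ERG5 alleles also overlapped, at 501 and 831 CPM of mRNA for S. cerevisiae and 484 and 731 for S. paradoxus, with a log2 ratio of 0.13 (SE 0.23, adjusted p = 0.766). Here replicate 2 was the higher for both alleles, and the share of the S. cerevisiae allele was 50.4% and 52.4%. ERG4 alleles stood at 528 and 723 CPM for S. cerevisiae and 386 and 586 for S. paradoxus, again with replicate 2 the higher. The log2 ratio of ERG4 was 0.36 (SE 0.19, adjusted p = 0.250). Because both alleles are read from 1 library, a fit on the hybrid columns with the library as a block compares them within it, and there ERG4 passed at a log2 ratio of 0.40 (adjusted p = 0.0012), in a fit that called 41.4% of all genes. The S. cerevisiae share of ERG4 mRNA was 57.3% and 54.4%. ERG6 changed side between the libraries, with S. cerevisiae shares of 54.1% and 45.3%, and had a log2 ratio of 0.08 (SE 0.25, adjusted p = 0.876).

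The parental and the allelic ratio of mRNA were then compared by an interaction term, which asks whether the species differ by more or less than the alleles do when they share a cell. The ratio differed for CYB5, ERG3, ERG2 and ERG5, 4 of the 6 genes, and in each the parental ratio was the lower, where 5.51% of all genes tested were called in that direction and 12.4% in either. CYB5 had the largest such difference of the 6, −2.75 on the log2 scale (SE 0.23, adjusted p = 2.25e-05). ERG2 differed by −1.18 (SE 0.24, adjusted p = 0.00772). For both, a large ratio between the species stood beside an allelic ratio within its standard error of 0. ERG3 differed by −1.51 (SE 0.19, adjusted p = 0.000406) in another way, since its species ratio did not pass and its allelic ratio did. ERG5 differed by −1.09 (SE 0.33, adjusted p = 0.0481). ERG5 stayed past the threshold only without 1 of the hybrid RNA-seq libraries, and leaving out any of the other 10 gave adjusted p between 0.0640 and 0.141. ERG6 (−0.57, SE 0.36, adjusted p = 0.315) and ERG4 (0.20, SE 0.27, adjusted p = 0.678) did not pass, and ERG6 passed without hybrid RNA-seq replicate 2 (−0.76, adjusted p = 0.0293).

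**Figure D2:**
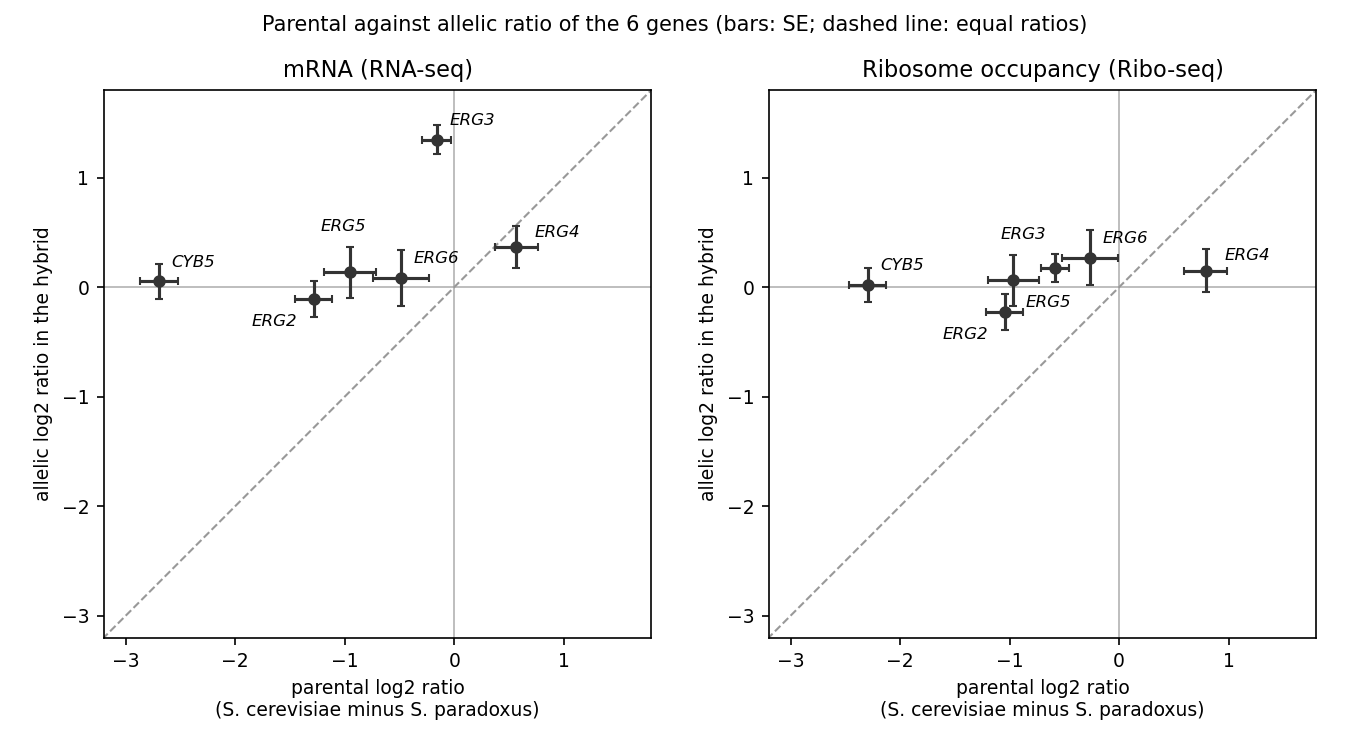
Log2 ratio of S. cerevisiae over S. paradoxus between the alleles of the hybrid (y axis) against the ratio between the parental species (x axis), for mRNA and for ribosome occupancy; bars are standard errors and the dashed line marks equal ratios. CYB5 lies far left of the line at −2.70 and 0.05 for mRNA, and ERG3 far above it at −0.16 and 1.35.

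In this plot of parental against allelic ratios, CYB5 and ERG2 lie at the level of equal alleles with the species apart, and ERG3 is the one gene whose mRNA alleles stand well off 0. In the occupancy panel ERG3 lies near the level of equal alleles.

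Ribosome occupancy between the species gave 5 calls among the 6 genes, against 33% of all genes tested. CYB5, ERG2, ERG5 and ERG3 were lower in S. cerevisiae, by 4.91-fold, 2.06-fold, 1.95-fold and 1.5-fold, and ERG4 was higher by 1.73-fold. CYB5 stood at 124 and 117 CPM in S. cerevisiae and at 552 and 634 in S. paradoxus (log2 ratio −2.30, SE 0.17, adjusted p = 8.39e-07). ERG2 stood at 540 and 565 against 1135 and 1145 (−1.05, SE 0.17, adjusted p = 0.000464). As in mRNA, both genes were far lower in S. cerevisiae with no overlap.

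ERG3 occupancy stood at 724 and 684 CPM in S. cerevisiae and at 1051 and 1065 in S. paradoxus (log2 ratio −0.59, SE 0.13, adjusted p = 0.00398). The gap between the species thus passed in occupancy and not in mRNA. The difference between these ratios, tested below as translation efficiency, did not itself pass (−0.43, adjusted p = 0.245). ERG5 occupancy stood at 350 and 341 against 688 and 661 (−0.97, SE 0.24, adjusted p = 0.00684), and ERG4 at 822 and 810 against 480 and 465 (0.79, SE 0.19, adjusted p = 0.00730). ERG4 was thus the 1 gene of the 6 called higher in S. cerevisiae in occupancy, as it was in mRNA. Both calls moved just past the threshold when 1 library was left out: ERG5 at 0.0515 without S. cerevisiae Ribo-seq replicate 2 and ERG4 at 0.0510 without S. paradoxus Ribo-seq replicate 2. ERG6 occupancy stood at 818 and 805 against 1061 and 885 (−0.26, SE 0.25, adjusted p = 0.460, 95% interval −0.81 to 0.29).

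Between the alleles of the hybrid, edgeR called none of the 6 genes in occupancy, where 8.74% of all genes tested were called, and none had an unadjusted p under 0.05; DESeq2 called none either. ERG3 alleles stood at 1005 and 930 CPM for S. cerevisiae and at 862 and 851 for S. paradoxus. The S. cerevisiae allele was still the higher, but by far less than in mRNA, with shares of 53.1% (52.2 to 54.1) and 51.8% (50.9 to 52.7) and a log2 ratio of 0.18 (SE 0.13, adjusted p = 0.505, 95% interval −0.11 to 0.46). CYB5 alleles stood at 443 and 380 for S. cerevisiae and at 434 and 377 for S. paradoxus, and overlapped, with shares of 49.8% and 49.7%. ERG2 alleles stood at 793 and 724 for S. cerevisiae and 896 and 878 for S. paradoxus. Its log2 ratio of −0.23 (SE 0.17, adjusted p = 0.505) passed in the fit with the library as a block (−0.23, adjusted p = 0.0193), which called 28.5% of all genes. Shares of the S. cerevisiae allele in occupancy were 50.5% in both libraries for ERG5, 51.9% and 52.2% for ERG4, and 54.0% and 54.1% for ERG6.

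The parental and allelic occupancy ratios differed for 2 of the 6 genes, CYB5 (−2.32, SE 0.23, adjusted p = 6.99e-05) and ERG3 (−0.76, SE 0.18, adjusted p = 0.0250), against 6.98% of all genes tested. The CYB5 difference passed in all 12 fits that left out 1 library, while that of ERG3 was lost without any one of the 6 Ribo-seq libraries, with adjusted p between 0.0680 and 0.249. How many of the 6 genes were called in these fits varied, as did the number over all genes, and both are given with the processing. ERG2 (−0.82, adjusted p = 0.0549), ERG5 (−1.03, adjusted p = 0.0784), ERG4 (0.64, adjusted p = 0.193) and ERG6 (−0.53, adjusted p = 0.439) did not pass. Without hybrid RNA-seq replicate 1 their log2 values changed little, to −0.84, −1.05, 0.62 and −0.55. Whether each of these genes passed nevertheless depended on the library left out. Other fits with all libraries, given with the processing, also called more of the 6 genes here.

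Translation efficiency, the occupancy of a gene relative to its mRNA, was compared as the difference between the occupancy and the mRNA ratio. Between the alleles 1 of the 6 genes passed, ERG3, against 1.38% of all genes tested. Its S. cerevisiae allele had 2.25 times less occupancy per mRNA than its S. paradoxus allele, a log2 difference of −1.17 (SE 0.18, adjusted p = 0.00617). The log2 value of Ribo-seq over RNA-seq was 0.43 for the S. cerevisiae allele, with replicate combinations between 0.36 and 0.50, and 1.60 for the S. paradoxus allele, between 1.59 and 1.62. In the parents this value was 1.12 in S. cerevisiae and 1.54 in S. paradoxus. The S. cerevisiae allele in the hybrid thus had the lowest of these ERG3 values, at the 73.4th percentile of genes, while the other 3 stood between the 91.3rd and the 98.5th. Its difference from the S. cerevisiae parent was not tested. The allelic call was lost without either hybrid Ribo-seq library (adjusted p = 0.156 without replicate 1 and 0.211 without replicate 2), while the log2 difference stayed about as large, at −1.22 and −1.12.

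Between the species none of the 6 genes passed in translation efficiency by edgeR, against 3.47% of all genes tested, and 1 of them, ERG3, had an unadjusted p under 0.05. DESeq2 also called none of the 6. ERG3 had a log2 difference of −0.43 (SE 0.18, adjusted p = 0.245, 95% interval −0.82 to −0.03) and CYB5 one of 0.40 (SE 0.23, adjusted p = 0.396, 95% interval −0.09 to 0.89). CYB5 had high occupancy per mRNA throughout, with log2 values of Ribo-seq over RNA-seq of 1.40 in S. cerevisiae, 1.00 in S. paradoxus and 1.06 and 1.10 for the alleles of the hybrid, against gene medians between −0.08 and −0.04. ERG6 lay between 0.60 and 0.95. ERG2, ERG5 and ERG4 were nearer to the median in the hybrid, between −0.24 and 0.19, than in the parents, where they lay between 0.29 and 0.78, a difference between hybrid and parents that was not tested.

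**Figure D3:**
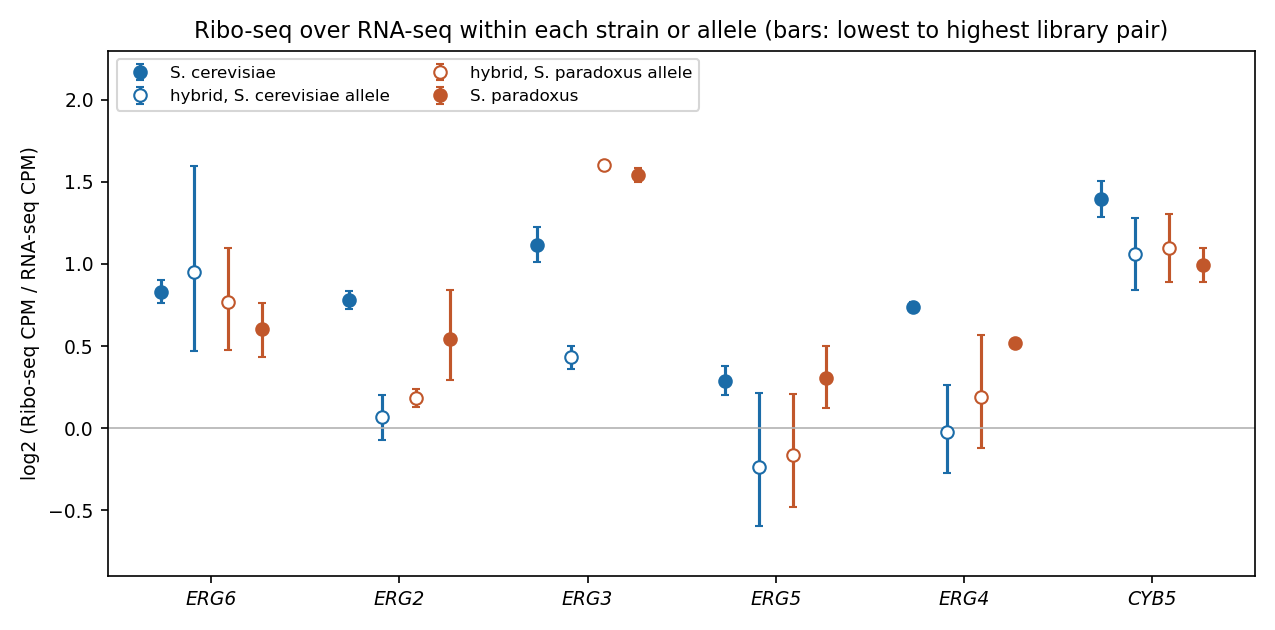
Log2 of Ribo-seq over RNA-seq CPM for each gene in the 2 parental species and for the 2 alleles of the hybrid; points are group values and bars run from the lowest to the highest combination of replicates. ERG3 stands at 1.12, 1.54 and 1.60 in 3 of these and at 0.43 for the S. cerevisiae allele of the hybrid.

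Summing the alleles gives the output of the hybrid as a whole, compared with each parent. The comparisons use the same hybrid libraries, so they are given side by side. Hybrid mRNA was higher than in S. cerevisiae for CYB5, ERG5, ERG2 and ERG3, 4 of the 6 genes, where 14.2% of all genes tested were higher and 25.4% were called in either direction. Against S. paradoxus, ERG4 and ERG3 mRNA was higher and CYB5 mRNA was lower, 3 of the 6 genes where 25.7% of all genes were called. The scale below differs slightly from that of the single alleles because the 12 libraries were scaled as a set.

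CYB5 mRNA stood at 208 and 177 CPM in the hybrid, at 48.8 and 44.4 in S. cerevisiae and at 301 and 304 in S. paradoxus. The hybrid lay between the parents, 4.14-fold above S. cerevisiae (log2 2.05, SE 0.16, adjusted p = 2.92e-05) and 1.57-fold below S. paradoxus (−0.65, SE 0.16, adjusted p = 0.0142). ERG2 mRNA stood at 725 and 778 in the hybrid, 331 and 322 in S. cerevisiae and 940 and 650 in S. paradoxus. The hybrid was above S. cerevisiae (log2 1.2, SE 0.18, adjusted p = 0.000859) and lay between the S. paradoxus replicates (−0.08, SE 0.18, adjusted p = 0.759).

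ERG5 mRNA stood at 493 and 775 CPM in the hybrid, 273 and 302 in S. cerevisiae and 493 and 620 in S. paradoxus. It was higher than in S. cerevisiae (1.14, SE 0.21, adjusted p = 0.00279) and overlapped S. paradoxus (0.19, SE 0.20, adjusted p = 0.508). Against S. paradoxus ERG5 passed only without hybrid RNA-seq replicate 1 (0.47, adjusted p = 0.0276), which was the lower of the hybrid replicates. ERG4 mRNA stood at 457 and 649 in the hybrid, 503 and 490 in S. cerevisiae and 335 and 336 in S. paradoxus. It was above S. paradoxus (0.72, SE 0.17, adjusted p = 0.0132), a call lost without either S. paradoxus RNA-seq library or without hybrid RNA-seq replicate 2 (adjusted p between 0.0517 and 0.0560), and it overlapped S. cerevisiae (0.16, SE 0.17, adjusted p = 0.535).

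ERG3 mRNA stood at 495 CPM in both hybrid replicates, at 345 and 315 in S. cerevisiae and at 377 and 361 in S. paradoxus. The hybrid lay above both parents with no overlap, by 1.5-fold over S. cerevisiae (log2 0.59, SE 0.14, adjusted p = 0.0113) and by 1.34-fold over S. paradoxus (0.42, SE 0.14, adjusted p = 0.0442). The first call was lost without S. cerevisiae RNA-seq replicate 1 (adjusted p = 0.0676) or replicate 2 (0.126). The second was lost in 11 of the 12 fits that left out 1 library, with adjusted p between 0.0567 and 0.119, and kept without hybrid RNA-seq replicate 1. ERG6 mRNA stood at 675 and 401 in the hybrid, and these values reached above and below both parents.

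ERG6 went with the library left out. Without hybrid RNA-seq replicate 2 its mRNA was above S. cerevisiae (0.54, adjusted p = 0.0261), and without replicate 1 it was below S. paradoxus (−0.71, adjusted p = 0.00442). With both libraries the log2 values were 0.21 (SE 0.21, adjusted p = 0.491) against S. cerevisiae and −0.28 (SE 0.21, adjusted p = 0.347) against S. paradoxus. Against S. paradoxus the number of the 6 genes called also went with the library left out. So did the number over all genes, and both ranges are given with the processing.

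**Figure D4:**
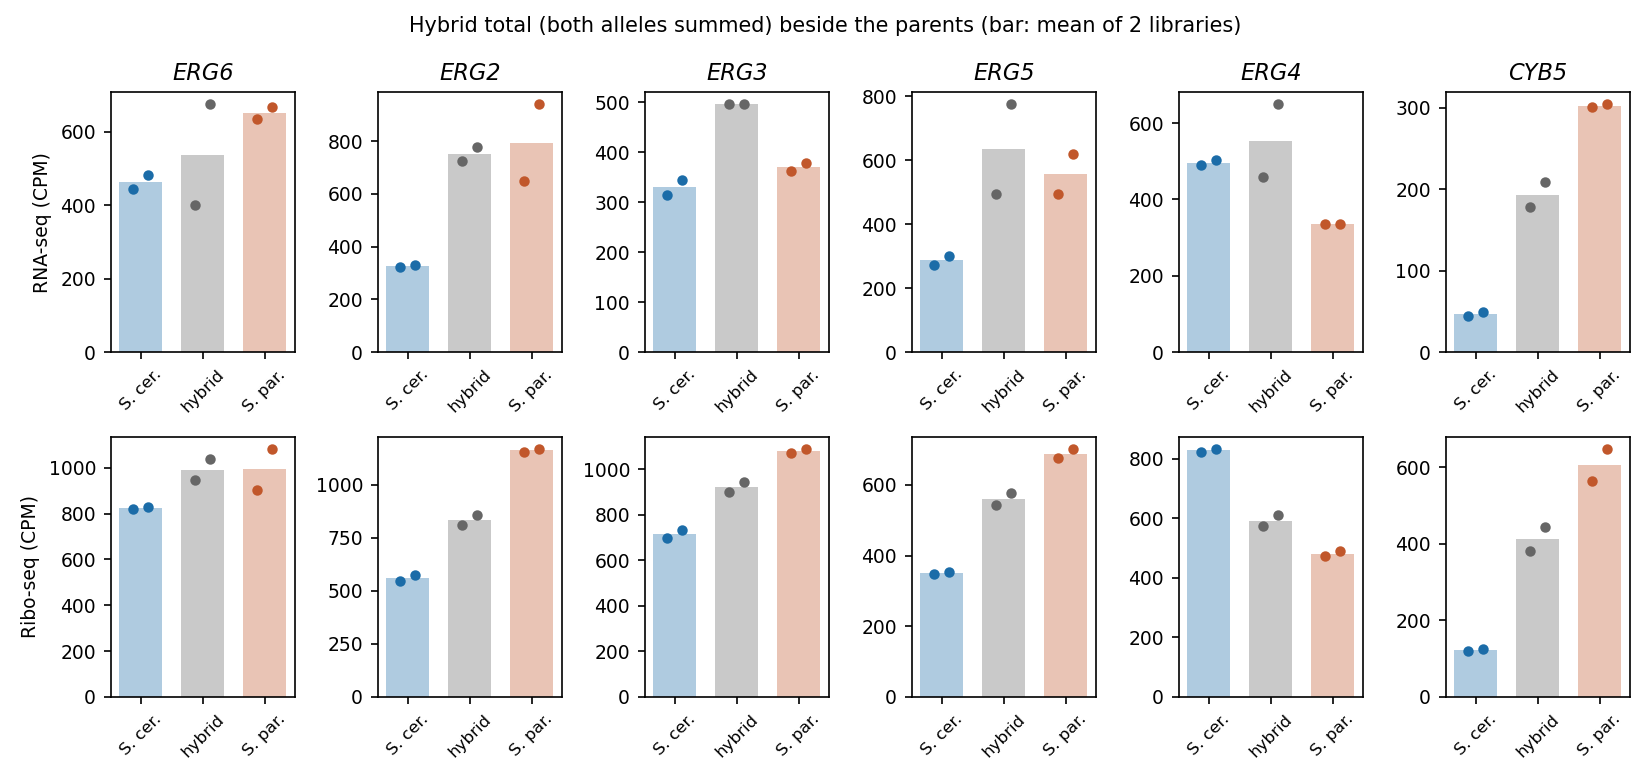
CPM of each gene in S. cerevisiae, the hybrid with both alleles summed, and S. paradoxus, for RNA-seq and Ribo-seq, on linear axes that start at 0; points are replicates, the lower drawn first, and bars their means. CYB5 in the hybrid lies between the parents in both assays, and ERG3 mRNA in the hybrid, at 495, lies above both.

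Hybrid occupancy was higher than in S. cerevisiae for CYB5 and ERG5, 2 of the 6 genes, where 5.74% of all genes tested were higher and 12.7% were called in either direction. CYB5 stood at 444 and 382 CPM in the hybrid, 126 and 119 in S. cerevisiae and 563 and 648 in S. paradoxus. The hybrid lay between the parents (log2 1.75 against S. cerevisiae, SE 0.16, adjusted p = 4.75e-05; −0.55 against S. paradoxus, SE 0.16, adjusted p = 0.0523). ERG5 occupancy was higher than in S. cerevisiae by 0.67 on the log2 scale (SE 0.20, adjusted p = 0.0496), a call kept without either hybrid RNA-seq library and lost without any of the other 10, at adjusted p between 0.0523 and 0.210. Without hybrid RNA-seq replicate 1 the log2 values of ERG2, ERG3 and ERG4 were 0.58, 0.37 and −0.48. With all libraries they were 0.57, 0.37 and −0.48, and the main fit called none of these. Whether each of ERG2, ERG3 and ERG4 passed depended on the library left out. DESeq2 with all libraries called more of the 6 genes here, as given with the processing.

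ERG3 occupancy, at 945 and 900 CPM in the hybrid, lay between S. cerevisiae at 734 and 696 and S. paradoxus at 1072 and 1088. It did not pass against either parent (0.37, adjusted p = 0.109, and −0.23, adjusted p = 0.377), so the position of the hybrid above both parents in mRNA was not seen in occupancy. Against S. paradoxus edgeR called none of the 6 genes in occupancy, where 7.62% of all genes were called, while ERG2 and CYB5 had an unadjusted p under 0.05 and DESeq2 called 1. ERG2 had a log2 value of −0.48 (SE 0.18, adjusted p = 0.123). CYB5 passed without either hybrid RNA-seq library, with an adjusted p of 0.0135 without replicate 1 and 0.0119 without replicate 2.

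The earlier steps of the pathway were counted on lists chosen by function, also with earlier results of these data known. Of 8 genes of the mevalonate pathway tested, 7 had less mRNA in S. cerevisiae than in S. paradoxus and none had more, with a median log2 ratio of −1.17. Of 10 genes from squalene to zymosterol, 8 had less and none more, with a median of −1.16. The 6 final genes had a median of −0.72 and all genes tested one of 0.00. HMG1, which encodes an HMG-CoA reductase, had a log2 ratio of −2.54 (SE 0.26, adjusted p = 1.17e-05), and ERG13, the HMG-CoA synthase, −1.51 (SE 0.19, adjusted p = 7.28e-05). ERG28, which encodes a scaffold that holds the demethylation enzymes together, had −2.22 (SE 0.22, adjusted p = 1.04e-05), and ERG26, the decarboxylase of that step, −1.49 (SE 0.14, adjusted p = 8.84e-06). Over all genes tested, 21.6% were lower. The highest ratio in the list from squalene to zymosterol was that of ERG24, a sterol reductase, at 0.35 (SE 0.15, adjusted p = 0.0658), which did not pass, beside 0.57 for ERG4. ERG24 is named here after its value was seen, and the difference between it and ERG4 was not tested.

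Between the alleles 1 of 8 genes of the mevalonate pathway was lower in mRNA, and 2 of 10 from squalene to zymosterol were higher and 1 lower, where 13% of all genes tested were called, against 43.5% between the species. With the library as a block, 2 of 8 were higher and 3 lower, and 2 of 10 were higher and 2 lower, where 41.4% of all genes were called. The medians were −0.18 and −0.05, beside 0.11 for the 6 final genes and −0.01 for all genes. ERG26, at −0.69 (SE 0.14, adjusted p = 0.00551), kept the direction it had between the species, and ERG27, the keto reductase of the same complex, was higher in the S. cerevisiae allele, at 0.68 (SE 0.15, adjusted p = 0.00994). The parental ratio was below the allelic ratio for 4 of 8 and 8 of 10 genes, and above it for none, beside 5.51% below over all genes. Among them were ERG13 at −1.62 (SE 0.27, adjusted p = 0.0028) and ERG28 at −1.73 (SE 0.30, adjusted p = 0.00332).

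In occupancy between the species, 7 of 8 and 7 of 10 genes of these lists were lower in S. cerevisiae and 1 was higher in each, where 33% of all genes tested were called in either direction. In translation efficiency edgeR called none of either list between species or alleles, where it called 3.47% and 1.38% of all genes. Hybrid mRNA was above S. cerevisiae for 6 of 8 and 8 of 10 genes and below it for none, where 14.2% of all genes were above. Against S. paradoxus 1 of 8 was lower and 1 of 10 higher, where 25.7% of all genes were called.

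**Figure D5:**
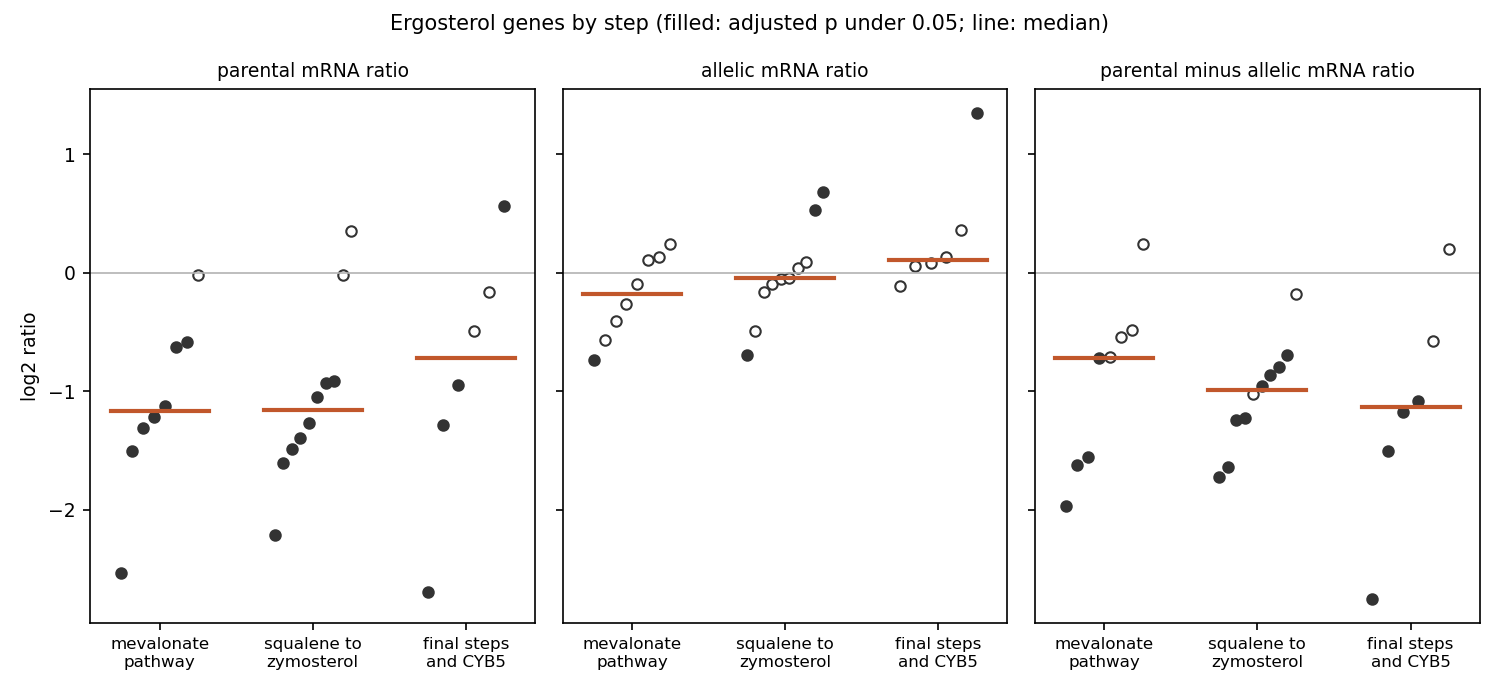
Log2 ratio of S. cerevisiae over S. paradoxus for mRNA, between the species and between the alleles of the hybrid, and the difference of these ratios, for the genes of the mevalonate pathway, from squalene to zymosterol, and the 6 final genes; each point is 1 gene, sorted by value within a list, filled where it passed the test, and lines are medians. The species ratios of the early lists have medians of −1.17 and −1.16, and the allelic ratios lie nearer to 0, with ERG3 at 1.35 as the highest.

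Among 6 genes that work with cytochrome b5 or with haem proteins, 2 had less mRNA in S. cerevisiae and none had more, where 21.6% of all genes tested had less and 43.5% were called in either direction. OLE1, the fatty acid desaturase, which carries a b5-like domain of its own, had a log2 ratio of −1.23 (SE 0.24, adjusted p = 0.00142), and NCP1, the reductase that feeds electrons to haem enzymes of the pathway, −0.93 (SE 0.32, adjusted p = 0.0305). NCP1 is also counted in the list from squalene to zymosterol. Between alleles none of the 6 was called in mRNA, and with the library as a block 3 were higher in the S. cerevisiae allele, where that fit called 41.4% of all genes. In occupancy MCR1, a b5 reductase of mitochondria, was the 1 gene of the 6 called between the species, at −1.11 (SE 0.17, adjusted p = 0.000352), where 33% of all genes tested were called.

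Of 10 tested genes for regulators, sterol esterification and uptake, 3 had more and 3 had less mRNA in S. cerevisiae, beside 21.9% and 21.6% of all genes tested. HAP1, the haem-responsive activator, was higher at 1.56 (SE 0.17, adjusted p = 2.3e-05) and MOT3, a repressor of sterol genes, lower at −1.90 (SE 0.20, adjusted p = 1.48e-05). HAP1 was also higher in occupancy (1.93, SE 0.17, adjusted p = 3.97e-06). MOT3 did not pass in occupancy (−0.36, SE 0.20, adjusted p = 0.178) and had the higher translation efficiency in S. cerevisiae (1.54, SE 0.27, adjusted p = 0.00834). The parental mRNA ratio of HAP1 was above its allelic ratio by 1.2 on the log2 scale (SE 0.24, adjusted p = 0.00702), while that of ARE2, a sterol esterification enzyme, was below by −1.49 (SE 0.27, adjusted p = 0.00456). Of the 10 genes 1 was above and 2 were below, where 12.4% of all genes tested were called in either direction. Between alleles 2 of the 10 were higher and 1 was lower in mRNA, where 13% of all genes tested were called. With the library as a block 5 were higher and 3 lower, where that fit called 41.4% of all genes. The annotated coding length differs between S. cerevisiae and S. paradoxus for HAP1 (4509 and 4440 bases) and for MOT3 (1473 and 1230 bases), and the part of this in their ratios was not tested.

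Over the 8 group means of log2 CPM, the profile of CYB5 was nearest to those of ZPR1, YER053C-A and NDE1 (Pearson r of 0.987, 0.987 and 0.985), and that of ERG3 to GUK1, CCT3 and RPP2A (0.988, 0.962 and 0.946). The nearest genes were TIF6, SNU13 and ALG9 for ERG2 (0.991, 0.987 and 0.981), RPL27A, RPL33B and TIM10 for ERG6 (0.991, 0.990 and 0.989), NAM7, RPL3 and PLB1 for ERG5 (0.976, 0.972 and 0.968), and AAT2, ATG2 and TOM71 for ERG4 (0.978, 0.968 and 0.962). Among the 6 themselves, CYB5 and ERG2 had the closest profiles, at 0.954, and ERG2 and ERG5 stood at 0.899. ERG4 had r between −0.24 and 0.49 with the other 5. The points share libraries in pairs and the step between the assays, so these values describe likeness over 8 means only.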

How the data were processed

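Per the labels, RNA-seq and Ribo-seq libraries were strand-specific. The authors deposited raw counts per orthologous gene and columns of gene coordinates; CASAVA 1.8, cutadapt 1.2.1, Bowtie 0.12.8, bedtools 2.17.0 and the build sacCer3 are named in the submitters' processing notes. The treatment of reads that match both species and the assembly used for S. paradoxus: not given in the sources used here. Columns were matched to samples by name, and no column was left out.

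The counts were fitted in R 4.3.3 with edgeR 4.0.16 (TMM scaling, filterByExpr with a minimum count of 10, quasi-likelihood test, Benjamini-Hochberg over all genes, threshold 0.05) as 8 groups over 16 columns. Hybrid totals were fitted as 6 groups over 12 libraries, with 5159 genes tested. Standard errors are the log2 value divided by the root of F, and the 95% intervals use edgeR's degrees of freedom. The procedure was tested on simulated data with columns drawn independently. Of genes changed by 1 on the log2 scale, it called 73.4% in parental mRNA and 73.6% in allelic mRNA. It called 30.2% in parental translation efficiency and 29.2% in parental minus allelic mRNA, so many changes of that size would be missed there. Of genes changed by 2, these last tests called 95.4% and 96.4%. Alternatives were relative log expression size factors, DESeq2 1.42.0, no filter, replicate blocks, the parental columns alone and leaving out each library. Profiles were compared on log2 of CPM plus 0.5.

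Both alleles of a hybrid are read from 1 library, which pairs them, and deviations of same-numbered columns from their group means correlated at 0.81 in RNA-seq and 0.39 in Ribo-seq. The main fit did not use this pairing, and only the fit with the library as a block did so by library. All 6 genes are named in every comparison. From each list at most 2 genes with the lowest adjusted p are named, and 3 genes as most like each of the 6. The 6 genes and the lists were chosen with earlier results of these data known. Gene names were taken from RefSeq by systematic name. Promoter and protein sequences were not analysed here.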

Additional observations from a re-analysis of the deposited data

Results flagged for a closer look

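Each of these results was picked out because a test of the difference itself, an interaction term in edgeR's quasi-likelihood test, adjusted by the Benjamini-Hochberg method over all genes tested, passed for 1 of the 6 genes. In mRNA the parental ratio was below the allelic ratio for CYB5, by −2.75 on the log2 scale (adjusted p = 2.25e-05), for ERG3, by −1.51 (adjusted p = 0.000406), for ERG2, by −1.18 (adjusted p = 0.00772), and for ERG5, by −1.09 (adjusted p = 0.0481). In occupancy it was below for CYB5, by −2.32 (adjusted p = 6.99e-05), and for ERG3, by −0.76 (adjusted p = 0.0250). In ERG3 the allelic ratio of occupancy was below that of mRNA by −1.17 (adjusted p = 0.00617), which is the difference in translation efficiency between its alleles.

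In mRNA, CYB5 and ERG2 both had the species far apart and the alleles close. In occupancy CYB5 passed and ERG2 did not (−0.82, adjusted p = 0.0549). ERG3 had close species and alleles far apart in mRNA. Its difference in translation efficiency subtracts that allelic mRNA ratio from an allelic occupancy ratio of 0.18, so its opposite sign is not a separate result. The ERG3 results in mRNA and in translation efficiency rest on the same hybrid RNA-seq counts. The ERG5 call in mRNA, the ERG3 call in occupancy and the ERG3 call in translation efficiency each ended when single libraries were left out, as given beside those results.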

How the results depend on the processing

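With relative log expression size factors or without the filter the number of the 6 genes called stayed within 1.5 times in all 12 comparisons. With the library as a replicate block in the hybrid columns alone, 2 genes were called in allelic mRNA and 1 in allelic occupancy, where 41.4% and 28.5% of all genes were called. The parental columns share replicate numbers and the word Mix in their headers. Whether same-numbered columns of the species came from 1 mixed library is stated neither there nor in the labels. These columns deviated together at r of 0.22 in RNA-seq and 0.09 in Ribo-seq. The replicate block by number gave 4 genes in the parental minus allelic occupancy ratio and 1 in hybrid occupancy against S. paradoxus. DESeq2 gave 4 and 1 in these and 4 in hybrid occupancy against S. cerevisiae. Leaving out 1 library gave 2 to 5 genes in parental mRNA, 4 to 5 in parental occupancy, 0 to 1 in allelic translation efficiency, 3 to 5 in parental minus allelic mRNA and 1 to 6 in occupancy. For hybrid mRNA it gave 3 to 5 against S. cerevisiae and 1 to 5 against S. paradoxus, and for occupancy 1 to 5 and 0 to 1. ERG3 mRNA in the hybrid against S. paradoxus was not called with relative log expression size factors (0.41, adjusted p = 0.0519). ERG2 was called there in the parental minus allelic occupancy ratio (adjusted p = 0.0498) and in hybrid occupancy against S. cerevisiae (adjusted p = 0.0476).

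Values that changed sign were not called in the main analysis. ERG5 parental translation efficiency was 0.0031 with relative log expression size factors and 0.0031 with DESeq2, and ERG6 hybrid occupancy against S. paradoxus was 0.00072 with the replicate block. Over the fits that left out 1 library, parental translation efficiency ran from −0.055 to 0.48 for ERG2 and from −0.18 to 0.14 for ERG5, allelic mRNA of ERG6 from −0.19 to 0.27, and allelic translation efficiency of ERG5 from −0.16 to 0.013. Hybrid mRNA against S. cerevisiae ran from −0.24 to 0.54 for ERG6 and from −0.12 to 0.35 for ERG4. Against S. paradoxus it ran from −0.71 to 0.051 for ERG6, −0.32 to 0.21 for ERG2 and −0.17 to 0.47 for ERG5, and ERG6 occupancy from −0.13 to 0.13. The cause of these changes was not tested.

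Counts over all genes moved more. Parental translation efficiency had 179 genes called, against 377 with DESeq2, 412 with the block by number and 572 on the parental columns alone. Allelic mRNA had 668, against 1050 with that block and 2124 with the library block, allelic occupancy 451, against 703 and 1464, and allelic translation efficiency 71, against 115 and 426 and, with DESeq2, 128. Parental minus allelic mRNA had 640 against 1246 with the block, occupancy 360 against 780 and, with DESeq2, 613, and hybrid occupancy against S. paradoxus 393 against 602 with the block. Leaving out 1 library gave 1352 to 3091 for parental mRNA (2245), 1027 to 2491 for parental occupancy (1702), 56 to 722 for parental translation efficiency, 473 to 837 for allelic mRNA, 110 to 984 for allelic occupancy, 11 to 147 for allelic translation efficiency, 198 to 1210 for parental minus allelic mRNA and 89 to 1069 for occupancy. For the hybrid it gave 332 to 2278 (1310) and 653 to 2648 (1325) in mRNA and 239 to 1256 (656) and 112 to 923 in occupancy, against S. cerevisiae and S. paradoxus. With 2 replicates a group, a call near the threshold depended on which library was left out. CYB5 mRNA in S. cerevisiae, at 434 and 478 counts, was the least deeply counted value.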
